A study of Homo sapiens with 8 samples.

Results

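A set of 10 genes listed as feedback genes of the ERK pathway was followed through the knockdown of the transcription factor ETV4 in human keratinocytes: the phosphatase genes DUSP4, DUSP5 and DUSP6, the Sprouty genes SPRY1, SPRY2 and SPRY4, the Spred genes SPRED1 and SPRED2, and the early response genes PHLDA1 and IER3. They were chosen by symbol as a list of ERK feedback genes, and all 10 were found among the 34415 gene symbols of the count table. The cells were HaCaT, a human epidermal keratinocyte line that became immortal spontaneously in culture, so each group is 1 cell line. All 8 cultures spent 96 h in 35 mM glucose, against the 5.5 mM of their basal medium, at passages 21 to 33, and were transfected for 48 h. The small interfering RNA (siRNA) targeted ETV4 in 4 cultures (siETV4) and was the negative control in the other 4 (siNC), and the submitters describe the cultures as independent biological replicates. Every group carried the high glucose, so the values compare the siRNAs within it.

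Growth factor receptors such as EGFR pass their signal through Ras, the Raf and MEK kinases and finally ERK, which drives proliferation and migration in keratinocytes. Active ERK also switches on early genes, among them several whose products shut the pathway down again. The DUSP proteins remove phosphate from MAP kinases, the Sprouty and Spred proteins act further up between the receptor and Raf, and the transcript levels of such genes are widely read as a gauge of ERK output. ETV4 belongs to the PEA3 group of ETS factors, is itself an output of ERK signalling and binds DNA around the letters GGAA.

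Each library held between 35057643 and 41657753 counts, and 1 CPM (a count scaled to the library total) corresponded to 40.1 counts on average. ETV4 stood at 1.83 to 3.10 CPM in the siETV4 libraries and at 19.8 to 32.0 CPM in the siNC libraries, the lowest of these in replicate 4. Genes rich or poor in the bases G and C ran apart between libraries: Spearman's rho across genes between GC content and a library's deviation from the mean of all 8 was 0.55, 0.52, 0.63 and -0.60 in siNC replicates 1 to 4 and -0.64, 0.20, -0.57 and 0.02 in siETV4 replicates 1 to 4. Genes are not independent replicates, and these values describe the libraries. All 8 keratinocyte markers looked for were expressed, with a summed FPKM (the authors' counts scaled by gene length and library total) of 1287 to 1418 in siETV4 and 1302 to 1496 in siNC. Of the marker genes of other cell types, COL1A2 and LUM (fibroblasts) and TYR and MLANA (melanocytes) were listed at 0 in every library. So were PTPRC and MS4A1 (leukocytes) and CLDN5 (endothelium). Others on these lists were detected. As means in siETV4 and siNC, COL1A1 stood at 3.47 and 4.24 CPM and MITF at 5.64 and 4.28 CPM. PMEL stood at 1.59 and 1.72 CPM and VWF at 0.753 and 1.07 CPM. Summed FPKM over the whole lists in siETV4 and siNC ran from 0.693 to 0.929 and 0.553 to 1.07 for 6 fibroblast genes, and from 1.38 to 2.10 and 1.01 to 1.90 for 6 melanocyte genes. For 5 leukocyte genes it was 12.9 to 14.5 and 9.93 to 14.04, mostly CD68, and for 4 endothelial genes 3.77 to 5.28 and 3.31 to 4.22, mostly CDH5. The fibroblast gene DCN had groups that did not overlap, at 0.658 and 0.146 CPM in siETV4 and siNC (edgeR adjusted p 0.203), and its part in the values below was not tested.

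None of the 10 feedback genes differed between siETV4 and siNC past the threshold. In the quasi-likelihood test of edgeR, adjusted by the Benjamini-Hochberg method across every tested gene, 0 of 10 reached an adjusted p under 0.05, against 0.236% of the 13572 genes tested. At an unadjusted p under 0.05 the count was also 0 of 10, against 12.6% of all genes. This unadjusted count was 3 without siNC replicate 4, 2 without siETV4 replicate 4 and 0 without any other single library. With each library's trends in GC content and length removed it was 1, and 2 with siNC replicate 4 left out as well. DESeq2 and limma-voom likewise called 0 of 10 at an adjusted p under 0.05. In all 10 genes the siETV4 and siNC libraries overlapped. Over all genes tested, 6.55% had groups that did not, so a count of 0 of 10 does not set these genes apart. Of the log2 fold changes (siETV4 minus siNC), 4 were positive and 6 negative, with a median of -0.09 beside -0.01 over all genes tested. All 10 passed the filter on low counts.

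The size of change compatible with these libraries differed from gene to gene. The 95% interval of the log2 fold change lay within a 2-fold change in either direction for 9 of the 10 genes, the exception being SPRY4, and within a 1.5-fold change for 5, namely DUSP4, DUSP6, SPRED2, PHLDA1 and IER3. Both counts moved with single libraries. The intervals of 3 genes (DUSP4, PHLDA1 and IER3) lay within 1.5-fold, and those of DUSP6 and SPRED2 did not, when siNC replicate 2 or siETV4 replicate 2 or 4 was left out. SPRY4 reached past 2-fold in each leave-one-out fit. SPRY2 did so too without siETV4 replicate 3 or 4 or siNC replicate 3 or 4 and with the replicate block (also with both trends removed), and SPRED1 without siETV4 replicate 2 or siNC replicate 4. With the trends in GC content and length taken out of every library, 7 genes lay within 1.5-fold and SPRY4 alone reached past 2-fold.

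**Figure D1:**
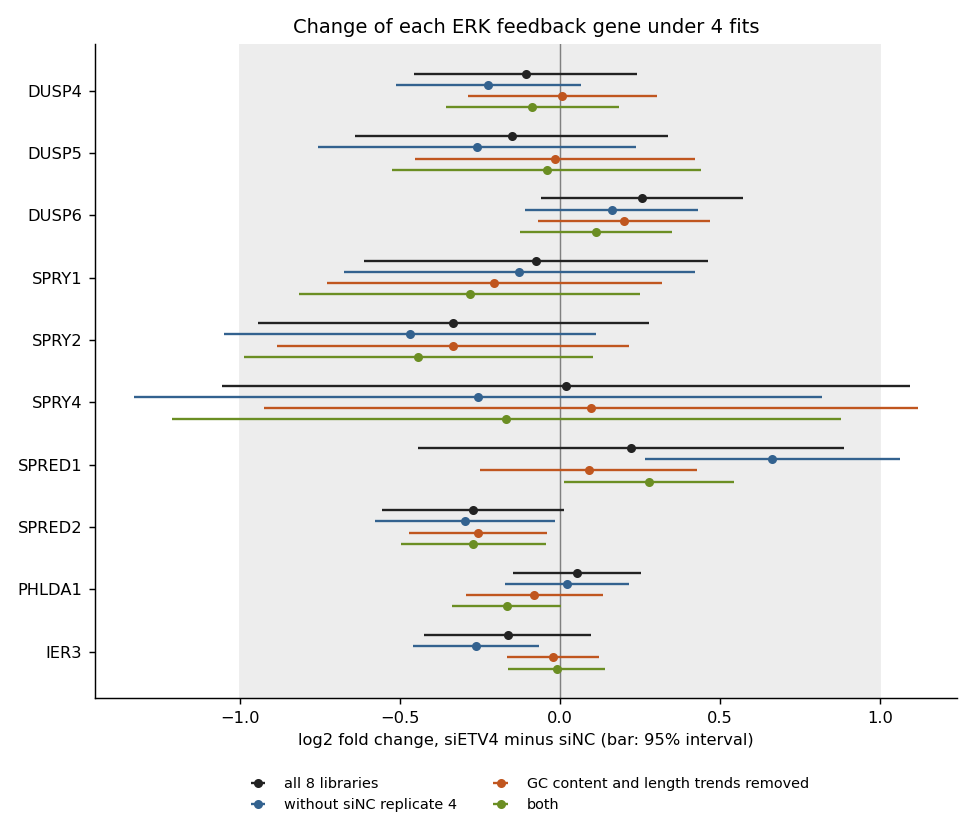
Log2 fold change (siETV4 minus siNC) of each feedback gene with its 95% interval from edgeR's quasi-likelihood fit, in 4 fits: all 8 libraries, without siNC replicate 4, with GC content and length trends removed, and both. The grey band marks a 2-fold change either way, and SPRED1 is the gene that moves most between fits, from 0.09 to 0.66.

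The genes differed far more from each other than between the siRNAs. Levels of different genes are compared here in FPKM, as means over the 8 libraries. IER3 was the most abundant at 65.6 FPKM (range over libraries 56.2 to 75.5), followed by PHLDA1 at 17.4 (16.1 to 19.5), DUSP6 at 6.34 (4.72 to 8.15) and SPRED2 at 3.82 (3.07 to 4.70). Each of these 4 genes lay above the next in all libraries. DUSP4 at 1.55, SPRED1 at 1.36, DUSP5 at 1.04, SPRY1 at 1.02 and SPRY2 at 0.893 FPKM followed, and the ranges of neighbours in this part of the order overlapped. SPRY4 came last at 0.0628 FPKM (0.0243 to 0.102), below every library of SPRY2. Among the mean FPKM values of the tested genes, IER3 stood at the 92.1 percentile, DUSP6 at the 56.0 and SPRY4 at the 2.01. For scale, the kinase gene MAPK3 stood at 21.2 FPKM and the receptor gene EGFR at 25.9.

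**Figure D2:**
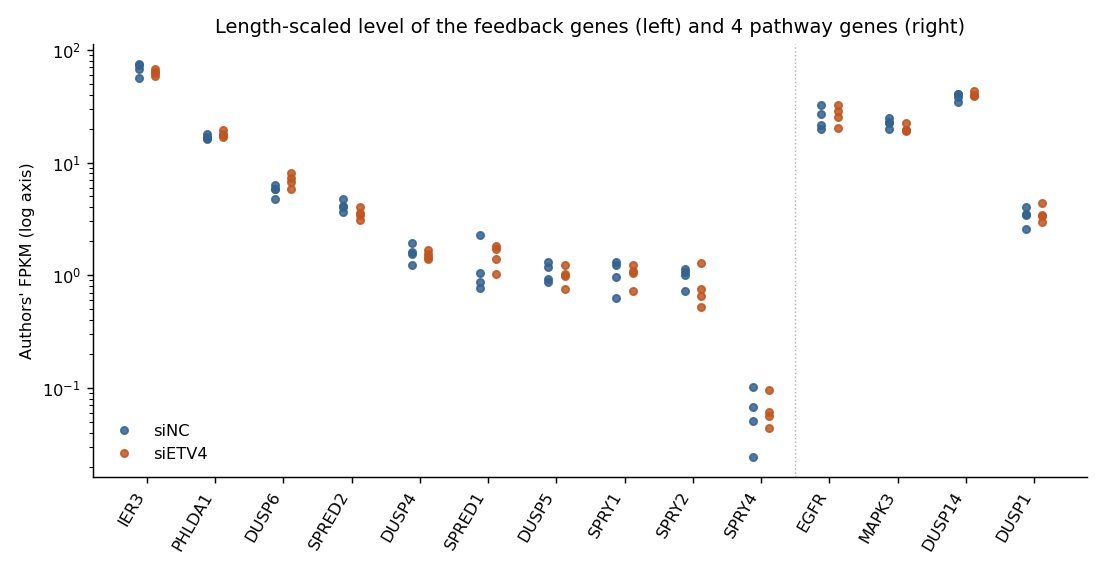
Deposited FPKM (log axis) of the 10 feedback genes, ordered by mean, and of 4 other pathway genes, 1 point per library (blue siNC, orange siETV4, n = 4 each). IER3 at 65.6 FPKM and SPRY4 at 0.0628 FPKM are the ends of the order, and the 2 colours overlap in every gene.

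**Figure D3:**
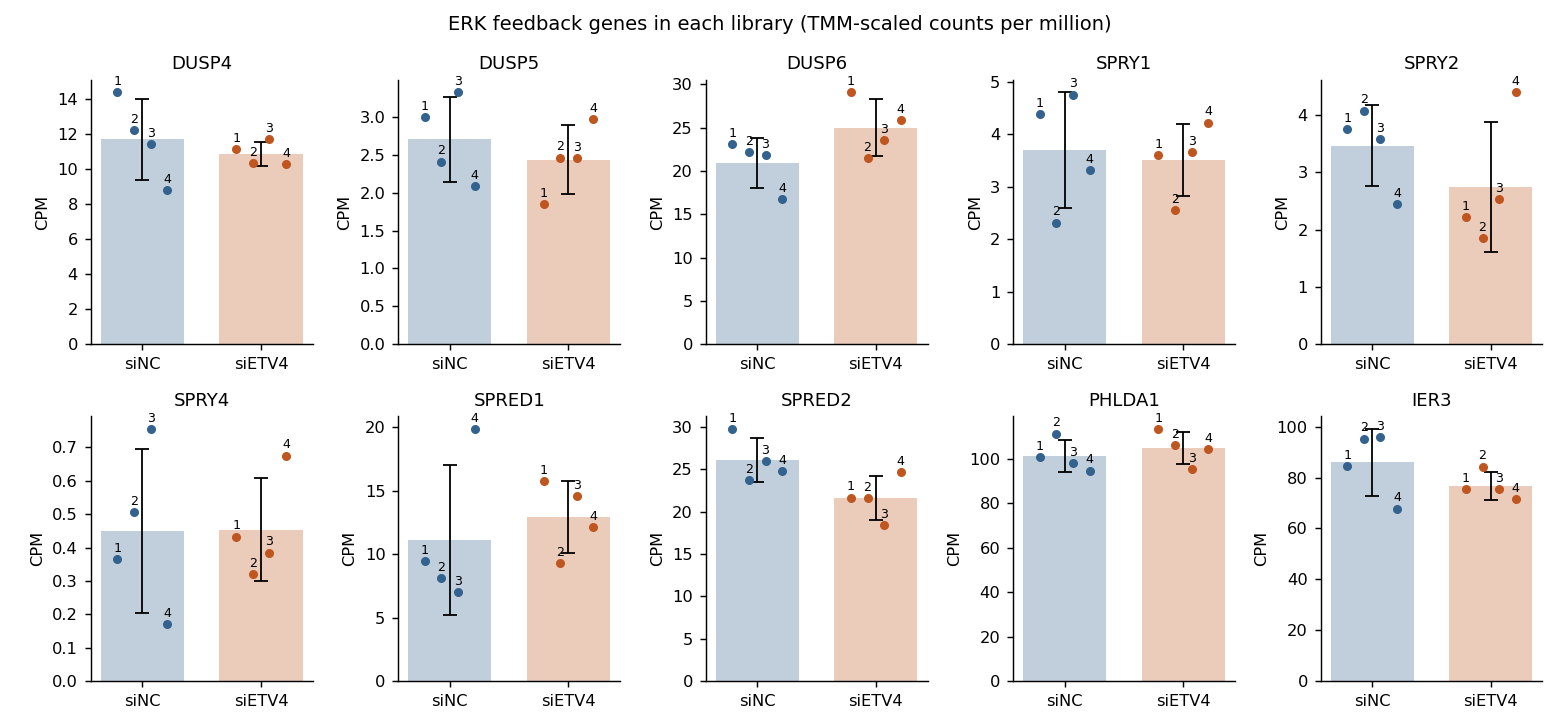
TMM-scaled CPM of the 10 feedback genes in each library, numbered by replicate. Bars are group means and whiskers the SD (n = 4 each), all axes start at 0, and in every panel the siNC and siETV4 libraries overlap.

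Among the phosphatases of the list, DUSP6 was the most abundant. The gene, on chromosome 12 from 89347235 to 89352501 (GRCh38.p14), encodes a cytoplasmic phosphatase that acts chiefly on ERK. It stood at 29.1, 21.5, 23.6 and 25.9 CPM in siETV4 replicates 1 to 4 and at 23.1, 22.2, 21.8 and 16.7 CPM in siNC replicates 1 to 4. The highest library was siETV4 replicate 1 and the lowest siNC replicate 4, with siETV4 replicate 2 inside the siNC range. The means were 25.0 ± 3.26 and 20.9 ± 2.88 CPM (SD, n = 4 each) and the log2 fold change was 0.26 (SE 0.14, 95% interval -0.06 to 0.57, edgeR adjusted p 0.476). Leaving out siNC replicate 4 brought the log2 fold change to 0.16 (SE 0.13), and removing the GC content and length trends brought it to 0.20 (SE 0.12).

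The DUSP6 promoter is printed as that of the feedback gene most used as a readout of ERK, and those of SPRED2 and SPRED1 because the first had the smallest p of the 10 genes and the second passed the threshold in 1 of the alternative analyses. Each is the RefSeq window of GRCh38.p14 from 250 bases before to 50 bases after the gene's start, 5′ to 3′ on the gene's strand, with the ETS core GGAA or its complement TTCC in capitals. DUSP6 lies at chr12:89352452-89352751 (minus strand), SPRED2 at chr2:65432550-65432849 (minus strand) and SPRED1 at chr15:38252586-38252885 (plus strand).
DUSP6: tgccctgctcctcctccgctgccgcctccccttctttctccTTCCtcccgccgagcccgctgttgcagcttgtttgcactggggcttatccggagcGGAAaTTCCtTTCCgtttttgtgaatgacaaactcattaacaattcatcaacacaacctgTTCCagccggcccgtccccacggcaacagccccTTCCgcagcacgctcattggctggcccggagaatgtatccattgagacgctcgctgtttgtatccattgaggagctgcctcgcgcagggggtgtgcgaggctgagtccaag
SPRED2: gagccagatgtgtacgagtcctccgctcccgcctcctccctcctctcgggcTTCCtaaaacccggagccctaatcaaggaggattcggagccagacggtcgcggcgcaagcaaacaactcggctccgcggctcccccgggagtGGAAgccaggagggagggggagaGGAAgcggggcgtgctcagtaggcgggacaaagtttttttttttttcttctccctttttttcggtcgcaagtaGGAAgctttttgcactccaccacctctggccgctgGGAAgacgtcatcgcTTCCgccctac
SPRED1: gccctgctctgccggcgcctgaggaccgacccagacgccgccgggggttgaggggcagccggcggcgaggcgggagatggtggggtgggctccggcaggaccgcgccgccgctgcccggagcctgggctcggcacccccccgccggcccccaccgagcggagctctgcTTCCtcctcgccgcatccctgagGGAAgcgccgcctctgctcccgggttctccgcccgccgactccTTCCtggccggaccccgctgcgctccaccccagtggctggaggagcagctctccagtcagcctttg

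Promoter windows were used for 7 of the 10 genes, all but DUSP4, DUSP5 and IER3. Any window of a feedback gene on chromosome 8, where DUSP4 lies, was left out by rule. Where RefSeq gave several starts the one listed first was taken. The core GGAA, searched on both strands, occurred 6 times in DUSP6 and in SPRED2, 5 times in SPRY1 and PHLDA1, 4 times in SPRY4 and 3 times in SPRED1 and SPRY2. Of 35116 RefSeq promoter windows of this length, 95.5% held it, with a mean of 3.51 matches. The longer ETS letters CCGGAA, which contain the core, occurred in SPRY2 and PHLDA1, 2 of the 7, against 17.2% of all windows, and CCGGAAGT occurred in 0 of the 7, against 4.14%. The AP-1 letters TGANTCA occurred in 0 of the 7, against 7.71% of all windows. These matches describe letters in a short window and not binding.

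DUSP4, on chromosome 8 from 29333064 to 29350684, encodes a nuclear phosphatase that acts on ERK and other MAP kinases. Its values were 11.1, 10.3, 11.7 and 10.3 CPM in siETV4 replicates 1 to 4 and 14.4, 12.2, 11.5 and 8.79 CPM in siNC replicates 1 to 4. The siETV4 libraries sat close together inside the wider range of the siNC libraries, whose ends were replicates 1 and 4. The coefficient of variation was 6.31% in siETV4, near the 4.72% that counting alone gives, and 19.7% in siNC. The means of 10.9 ± 0.685 and 11.7 ± 2.31 CPM (SD, n = 4 each) gave a log2 fold change of -0.11 (SE 0.16, 95% interval -0.46 to 0.24, edgeR adjusted p 0.781).

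DUSP5, on chromosome 10 from 110497907 to 110511533, encodes a nuclear phosphatase specific to ERK and was the least abundant phosphatase of the list. It was measured at 1.85, 2.46, 2.45 and 2.97 CPM in siETV4 and at 3.00, 2.41, 3.32 and 2.08 CPM in siNC, replicates 1 to 4 in order. Libraries of both groups lay at either end. The log2 fold change was -0.15 (SE 0.22, 95% interval -0.64 to 0.34, edgeR adjusted p 0.781). It lay between -0.26 and -0.04 when 1 library was left out, and at -0.02 after removal of both library trends (GC content and length).

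The Sprouty genes held the last 3 places in the order of levels. SPRY2, on chromosome 13 from 80335976 to 80341126, encodes an inhibitor that acts near the receptor and Grb2. It stood at 2.21, 1.85, 2.53 and 4.39 CPM in siETV4 replicates 1 to 4 and at 3.76, 4.07, 3.57 and 2.45 CPM in siNC replicates 1 to 4. The library siETV4 replicate 4 was the highest of all 8, and siNC replicate 4 lay below siETV4 replicate 3. The means were 2.74 ± 1.13 and 3.46 ± 0.708 CPM (SD, n = 4 each) and the log2 fold change was -0.33 (SE 0.28, 95% interval -0.95 to 0.28, edgeR adjusted p 0.621), the lowest of the 10 genes. When 1 library was left out the value ran from -0.66 (without siETV4 replicate 4) to -0.18 (without siETV4 replicate 2), with none past the threshold.

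SPRY1, on chromosome 4 from 123396795 to 123403760, encodes another Sprouty inhibitor of receptor tyrosine kinase signalling. It was measured at 3.61, 2.56, 3.66 and 4.22 CPM in siETV4 and at 4.39, 2.32, 4.76 and 3.32 CPM in siNC, replicates 1 to 4 in order. Replicate 2 was the lowest library of each group, and the siETV4 range lay inside the siNC range. The log2 fold change was -0.08 (SE 0.25, 95% interval -0.61 to 0.46, edgeR adjusted p 0.906).

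SPRY4, on chromosome 5 from 142310430 to 142325021, inhibits signalling at Ras and Raf and was close to the floor of the tested genes. Its libraries held 18, 13, 16 and 28 counts in siETV4 replicates 1 to 4 and 15, 17, 30 and 7 counts in siNC replicates 1 to 4. The largest and the smallest count both fell in siNC. A log2 fold change of 0.02 (SE 0.49, 95% interval -1.05 to 1.09, edgeR adjusted p 0.989) had the widest interval of the 10 genes, reaching about 2-fold either way. SPRY4-IT1, an intronic transcript counted separately, shares part of the span of SPRY4.

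The Spred genes, whose products bind Ras and neurofibromin and hold back Raf, went in opposite directions, neither past the threshold. SPRED2, on chromosome 2 from 65307175 to 65432599, had the smallest p of the 10 genes. It stood at 21.7, 21.6, 18.4 and 24.7 CPM in siETV4 replicates 1 to 4 and at 29.8, 23.8, 26.0 and 24.8 CPM in siNC replicates 1 to 4. The groups met at a single pair of libraries, siETV4 replicate 4 lying above siNC replicate 2. Means of 21.6 ± 2.59 and 26.1 ± 2.62 CPM (SD, n = 4 each) gave a log2 fold change of -0.27 (SE 0.13, 95% interval -0.56 to 0.01, edgeR adjusted p 0.410). It was also -0.30 without siNC replicate 4 (edgeR adjusted p 0.124) and -0.26 after removal of both trends (edgeR adjusted p 0.253), and over 22 alternative analyses its adjusted p lay between 0.124 and 0.809.

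SPRED1, on chromosome 15 from 38252836 to 38357249, is the gene whose loss causes Legius syndrome, a RASopathy with pigmented skin spots. It stood at 15.8, 9.31, 14.6 and 12.1 CPM in siETV4 replicates 1 to 4 and at 9.42, 8.09, 7.02 and 19.9 CPM in siNC replicates 1 to 4. A single control library, siNC replicate 4, was the highest of all 8, while the other siNC libraries were low and only siETV4 replicate 2 lay among them. The means were 12.9 ± 2.85 and 11.1 ± 5.92 CPM (SD, n = 4 each) and the log2 fold change was 0.22 (SE 0.30, 95% interval -0.44 to 0.89, edgeR adjusted p 0.764). Without siNC replicate 4 the log2 fold change was 0.66 (SE 0.18) and passed (edgeR adjusted p 0.0308), in a fit that called 16.9% of all genes. Among the libraries of that fit the trends with GC content did not overlap between groups (0.52 to 0.63 in siNC, -0.64 to 0.20 in siETV4). The siRNA and the library trend cannot be told apart in it. The adjusted p of SPRED1 ranged from 0.0308 to 0.984 over the 22 alternatives. After removal of the trends in GC content and length the value was 0.09 (edgeR adjusted p 0.846), and with siNC replicate 4 left out as well it was 0.28 (edgeR adjusted p 0.203).

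The longest SPRED1 transcript has the lowest GC content of the 10 genes, 38.9%, and that of IER3 the highest, 58.5%. The libraries ordered the genes in opposite ways: siNC replicate 4 and siETV4 replicates 1, 3 and 4 were the 4 highest libraries for SPRED1 and the 4 lowest for IER3. The library trends with GC content were -0.60 in that siNC library and -0.64, -0.57 and 0.02 in those siETV4 libraries, against 0.20 to 0.63 in the other 4. This pair is the most opposed of the 45 pairs of feedback genes within groups (Pearson's r -0.93 over the 8 libraries), and a description. In siNC replicate 4 SPRED1 deviated by 0.80 on the log2 scale. The feedback genes next lowest in GC content, PHLDA1 (44.3%) and SPRY1 (44.8%), deviated there by -0.12 and -0.08. The pathway genes MET (42.4%) and MCL1 (45.1%), chosen after their values were seen, had their highest siNC value in that library. They stood there at 228 and 284 CPM, against 113 to 128 and 181 to 191 CPM in the other siNC libraries. With the trends removed, the log2 fold changes of SPRED1 and IER3 were 0.09 and -0.02, and the part of GC content in the values of single genes was not tested further.

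**Figure D4:**
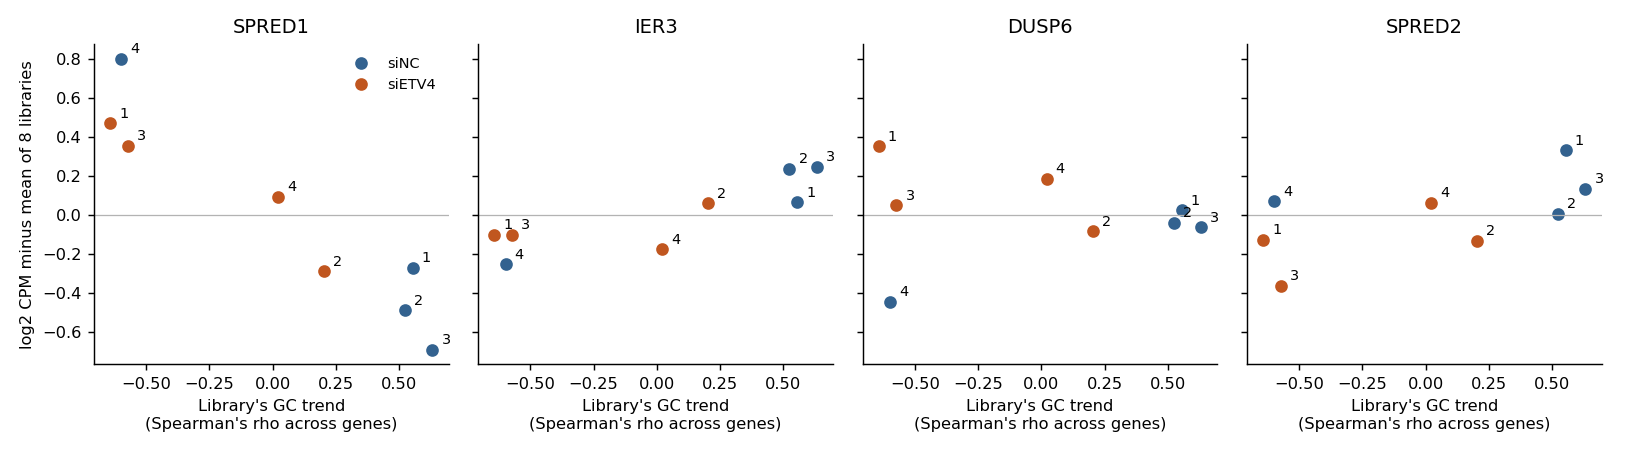
Deviation of 4 feedback genes in each library (log2 CPM minus the mean of the 8 libraries) against the library's trend with GC content (Spearman's rho across genes), numbered by replicate (blue siNC, orange siETV4). SPRED1 is high and IER3 low in siNC replicate 4 and siETV4 replicates 1 and 3, whose trends are -0.60, -0.64 and -0.57. In siETV4 replicate 4, whose trend is 0.02, IER3 is lower (-0.17) than in siETV4 replicates 1 and 3 (-0.10 each). DUSP6 is low in siNC replicate 4 and not in siETV4 replicates 1 and 3.

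The early response genes held the first places in the order of levels. PHLDA1, on chromosome 12 from 76025447 to 76031776, encodes a pleckstrin homology-like protein and is an early transcript of ERK signalling. It stood at 113, 106, 95.5 and 104 CPM in siETV4 replicates 1 to 4 and at 101, 111, 98.0 and 94.8 CPM in siNC replicates 1 to 4. The highest library exceeded the lowest 1.20-fold, the smallest such ratio of the 10 genes, and the groups were interleaved. The means of 105 ± 7.38 and 101 ± 7.20 CPM (SD, n = 4 each) gave a log2 fold change of 0.05 (SE 0.09, 95% interval -0.15 to 0.25, edgeR adjusted p 0.821). The sign turned after removal of the GC content and length trends (-0.08, edgeR adjusted p 0.753), with adjusted p values of 0.232 to 0.988 over the alternatives.

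IER3, on chromosome 6 from 30743199 to 30744547, is a stress- and growth factor-induced early gene whose product binds ERK and is described as prolonging its activity, unlike the inhibitors above. It was measured at 75.4, 84.4, 75.4 and 71.6 CPM in siETV4 and at 84.6, 95.3, 96.1 and 67.8 CPM in siNC, replicates 1 to 4 in order. The lowest of all libraries was siNC replicate 4, and the other siNC libraries lay above every siETV4 library. The means were 76.7 ± 5.43 and 86.0 ± 13.2 CPM (SD, n = 4 each) and the log2 fold change was -0.16 (SE 0.12, 95% interval -0.43 to 0.10, edgeR adjusted p 0.566). Without siNC replicate 4 it was -0.26 (edgeR adjusted p 0.0633), and after removal of both trends it was -0.02 (edgeR adjusted p 0.917), with adjusted p values of 0.0633 to 0.952 over the alternatives. The antisense genes IER3-AS1 and PHLDA1-AS1 overlap IER3 and PHLDA1, and without a stated strand setting their reads cannot be told apart from those of these genes. POC1B-DUSP6, which is not among the counted symbols, overlaps DUSP6, and DHX8, which is, overlaps ETV4. How reads in these overlaps were assigned is not given.

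The spread between cultures exceeded counting error in both groups for all 10 genes. It was least above counting error for DUSP4 in siETV4, and the widest spreads were 54.8% for SPRY4 and 53.4% for SPRED1 in siNC, where counting alone gives 24.1% and 4.77%, and 41.3% for SPRY2 in siETV4, where it gives 9.39%. SPRED1 without siNC replicate 4 is the sole case among these genes in which leaving out 1 library brought a call.

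The rest of the pathway was read in 4 lists of 86 genes, of which 81 were tested. None of them passed the threshold over all genes in edgeR's test, while DESeq2 called 1 and limma-voom 0. An unadjusted p under 0.05 was found for 9 of the 81, against 12.6% of all genes. Groups that did not overlap were found for 3 of the 81, namely ERBB3, SHC1 and ETV5 (3.70%, against 6.55% of all genes). The other MAP kinase phosphatase genes had a median log2 fold change of -0.02 over 10 tested, with 5 positive and 5 negative. Their values ran from -0.41 to 0.19. The lowest was DUSP9, chosen here after its values were seen, with overlapping groups (edgeR adjusted p 0.327). DUSP9 passed without siNC replicate 4 (-0.48, edgeR adjusted p 0.0359), in a fit that called 16.9% of all genes. DUSP14 and DUSP3 were the most abundant genes of this list at 39.5 and 23.4 FPKM, with log2 fold changes of 0.03 and 0.02. DUSP1, a stress-induced phosphatase of several MAP kinases, had 7.01 and 6.96 CPM in siETV4 and siNC (log2 fold change 0.01, SE 0.19).

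Other inhibitors of the receptor and of Ras had a median log2 fold change of 0.04 over 18 tested genes, 11 positive and 7 negative. SPRY3 and SPRED3, the remaining members of the Sprouty and Spred families, were below the filter on low counts. PEBP1, which blocks Raf, had 215 CPM in siETV4 against 247 in siNC (-0.20 on the log2 scale, SE 0.11, edgeR adjusted p 0.462), and CBLC, a ubiquitin ligase of receptors, had a log2 fold change of 0.04. LRIG1, an inhibitor of EGF receptors chosen here after its values were seen, had the lowest value of all 4 lists, -1.71 (SE 0.73, edgeR adjusted p 0.388), at 0.188 and 0.617 CPM. Its libraries held only 7, 10, 0 and 14 counts in siETV4 replicates 1 to 4. In siNC replicates 1 to 4 they held 48, 8, 18 and 25 counts, and the groups overlapped.

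Among 30 tested genes of the cascade from receptor to ERK the median log2 fold change was -0.02, with 14 positive and 16 negative. MAPK3, which encodes an ERK kinase, had a log2 fold change of -0.21 (SE 0.12). EGFR stood at 0.04, and MAP2K2 and HRAS, the most abundant genes of the list, at -0.16 and -0.03, HRAS turning positive in 11 of 22 alternatives. ERBB3, a receptor of the EGF receptor family chosen here after its values were seen, had 28.0 ± 3.84 CPM in the siETV4 libraries and 41.0 ± 3.24 CPM in the siNC libraries (SD, n = 4 each), with groups that did not overlap. Its log2 fold change was -0.55 (SE 0.13, edgeR adjusted p 0.138), and 4 of 22 alternatives called it, DESeq2 among them at an adjusted p of 0.0151, within a range of 0.0151 to 0.448 over all 22.

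Output genes of ERK had a median of -0.09 over 23 tested, 8 positive and 15 negative. The immediate early genes EGR1 and FOS, which ERK induces within minutes to hours, had log2 fold changes of -0.56 (SE 0.23) and -0.50 (SE 0.26), with edgeR adjusted p values of 0.362 and 0.450. EGR1 stood at 3.90 CPM in siETV4 against 5.76 in siNC, and FOS at 1.58 against 2.23. CCND1, the cyclin of G1 phase, had a log2 fold change of 0.10 (SE 0.09) and JUNB, a subunit of AP-1, of -0.13 (SE 0.09). Without siNC replicate 4, 11 genes of the 4 lists passed, 7 higher and 4 lower in siETV4. That fit called 16.9% of all genes, and the siRNA and the library trend with GC content cannot be told apart in it. With the trends in GC content and length removed too, 3 passed, in a fit that called 6.59% of all genes. These were MET and MCL1, higher (0.48 and 0.47), and ERBB3, lower (-0.43). With all libraries MET and MCL1, also chosen after their values were seen, had log2 fold changes of 0.47 and 0.43, not past the threshold, and siNC replicate 4 was the highest siNC library for both (228 and 284 CPM, against 113 to 128 and 181 to 191 in the others).

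**Figure D5:**
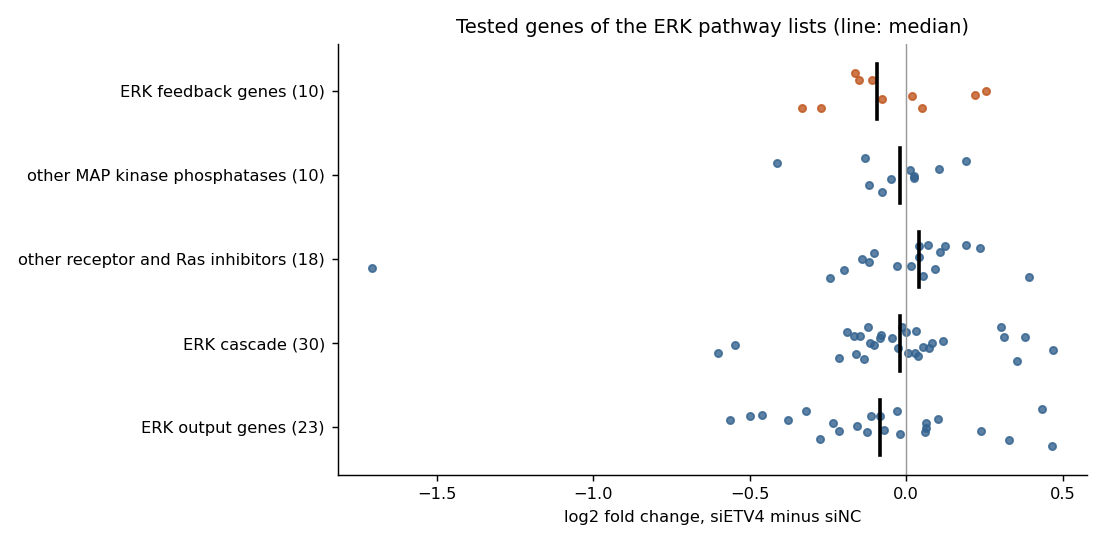
Log2 fold change (siETV4 minus siNC) of every tested gene of the feedback list (10 genes, orange) and of the 4 other pathway lists (10, 18, 30 and 23 genes, blue), with the median of each as a black line. The medians lie between -0.09 and 0.04, and the point farthest left is LRIG1 at -1.71, a gene with 0 to 48 counts in a library.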

How the data were processed

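The authors deposited raw read counts per gene symbol, and FPKM values for the same symbols, for 8 libraries of HaCaT cells. Groups and replicate numbers come from the sample titles. The submitters' processing notes name hg38 and R 3.2.0. Not given in the sources used here are the aligner, the counting tool, the annotation, the strand setting and the siRNA sequences. For 20584 of 20585 genes above 0 the deposited FPKM equals the count over the library total and a gene length that is the same in every library (relative tolerance 1e-06), so it holds no further normalization.

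Counts were tested in R 4.3.3 with edgeR 4.0.16: filterByExpr (minimum count 10), which kept 13572 genes, TMM factors, siRNA as the only term, the quasi-likelihood test, and Benjamini-Hochberg adjustment over all genes tested, with a call at an adjusted p under 0.05. SEs are the log2 fold change divided by the square root of the F statistic, and 95% intervals follow from them. CPM values use TMM-scaled totals. No 2 libraries agreed within sampling noise (chi-square per degree of freedom at least 10.0). The tests were run first on simulated counts with known changes. Those counts carried no library trend with GC content, and their outcome is not used here. Members and lists were chosen with earlier results of these data known. Named genes are the members, ETV4, pathway reference genes (1 is not reported here), up to 4 genes per list past the threshold or the 2 most abundant of it, and the genes most like DUSP6, SPRY4 and DUSP4 over the libraries. ERBB3, LRIG1, MET, MCL1, SHC1, ETV5, DUSP9 and DCN fall outside this rule and were chosen after their values were seen.

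Alternatives were DESeq2 1.42.0, limma-voom (limma 3.58.1), a robust fit, scaling by RLE factors or by library size alone, testing without a filter or with at least 1 CPM in 4 libraries, a block on the replicate number, each library left out, adjusted p under 0.1 or 0.01, limma-trend on log2 of the deposited FPKM plus 1 or 0.1 (mean of at least 0.5, or all genes), and offsets removing each library's trend with GC content (longest GENCODE v29 transcript, found for 12758 tested genes, 94.0%) and length (splines, 5 degrees of freedom each). Positions and promoters are from RefSeq, GRCh38.p14.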

Additional observations from a re-analysis of the deposited data

Results flagged for a closer look

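Single libraries that stood apart from the other 3 of their group were looked for by the gap to the nearest library over the group's range (Dixon's ratio, 95% critical value 0.829 for 4 samples). Of 48 groups, 2 for each of 24 genes named by rule, 3 exceeded it, and chance gives about 1 in 20. None of the 3 was in a feedback gene. DUSP14 stood at 134 CPM in siETV4 replicate 2 and at 118 to 120 CPM in the others. MAP2K2, which encodes a MEK kinase, stood at 187 CPM in siNC replicate 4 and at 241 to 247 CPM in the others. MAPK3 stood at 41.7 CPM in siETV4 replicate 2 and at 34.1 to 35.3 CPM in the others. ERBB3, LRIG1, MET and MCL1, named after their values were seen, were screened too. Of these, MET and MCL1 also exceeded it, both in the library without which they passed the threshold. Their values are a description and bear on no count. MET, a receptor tyrosine kinase gene, stood at 228 CPM in siNC replicate 4 and at 113 to 128 CPM in the others of its group. MCL1, an inhibitor of apoptosis, stood at 284 CPM in the same library and at 181 to 191 CPM in the other siNC libraries.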

How the results depend on the processing

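The count of feedback genes called was 0 in all alternatives except when siNC replicate 4 was left out (0 to 1 over the leave-one-out analyses). Their median log2 fold change was -0.24 (without siNC replicate 4) to -0.00 over these analyses, against -0.09 with all libraries. The pooled SD between replicates of a library's median deviation over these genes was 0.168. That SD is a spread of single libraries and not of the median log2 fold change. Over all genes, 32 were called, against 54 with no filter, 162 with DESeq2, 59 on either log2(FPKM) scale with a mean of at least 0.5, 60 and 9 at adjusted p under 0.1 and 0.01, 182 with the GC content and length offsets, 850 with those offsets and without siNC replicate 4, and 9 to 2327 when 1 library was left out. Library size alone gave 16 higher and 10 lower calls in place of 16 and 16, and log2(FPKM + 1) over all genes 20 and 11. The replicate block called 4 genes, and 92 with the offsets, and changed the call of no feedback gene. The numbers are not known to mark a shared batch, and deviations of same-numbered libraries correlated at -0.09, 0.30, -0.14 and -0.19. In the 4 pathway lists 0 genes were called, against 1 with DESeq2, 1 with the replicate block and offsets, 3 with offsets and without siNC replicate 4, and 0 to 11 when 1 library was left out. The cause was not tested.

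Log2 fold changes near 0 turned sign, in 13 of 217 pairs of gene and alternative for the feedback genes (DUSP4, SPRY1, SPRY4 and PHLDA1) and 26 of 393 for the other named genes, none of them past the threshold. With the offsets the values were 0.0061 (DUSP4), -0.081 (PHLDA1), 0.14 (HRAS), 0.025 (JUNB). With the replicate block and offsets the values were 0.015 (DUSP4), -0.076 (PHLDA1), 0.15 (HRAS), 0.030 (JUNB). With offsets and without siNC replicate 4 the values were -0.17 (SPRY4), -0.17 (PHLDA1), 0.13 (HRAS), 0.11 (JUNB). With library size alone the values were 0.020 (HRAS). On log2(FPKM + 1) the values were 0.029 (HRAS). On log2(FPKM + 0.1) the values were 0.029 (HRAS). On log2(FPKM + 1) over all genes the values were 0.029 (HRAS). When 1 library was left out the lowest and highest values were -0.22 and 0.0067 (DUSP4), -0.24 and 0.067 (SPRY1), -0.26 and 0.40 (SPRY4), -0.041 and 0.066 (DUSP14), -0.030 and 0.068 (DUSP3), -0.056 and 0.11 (CBLC), -0.16 and 0.045 (HRAS), -0.069 and 0.16 (EGFR), -0.11 and 0.12 (DUSP1).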

Other observations

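Likeness to 3 feedback genes was taken as Pearson's r of log2 CPM over the 8 libraries, among genes whose mean log2 CPM was 3 or more, and is a description only, since the largest values among about 9190 candidates are high by selection and the libraries share their depth and GC trends. TPST1, a tyrosylprotein sulfotransferase gene, and ARHGEF35 were most like DUSP6 (r 0.92 each). MICB, a stress-induced ligand of NKG2D, and TMCO6 were most like DUSP4 (r 0.92 each). RGP1 and the phosphatase gene DUSP3 were most like SPRY4 (r 0.95 and 0.92), a gene with 7 to 30 counts in a library.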
